A study of Mus musculus with 2 samples.

Results

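The RNA of voltage-gated and related ion channels was measured in single cells of CT26 tumors. Members were taken by gene symbol alone. They are the listed genes whose symbol starts with Scn and a digit, with Kcn, Cacna or Clcn, or with Trpa, Trpc, Trpm or Trpv and a digit, without *Kcnq1ot1*. This gave 158 of the 33696 genes in the deposited matrices. They comprise 10 sodium channel pore (alpha) genes and 4 sodium channel beta genes, 40 voltage-gated, 15 inwardly rectifying (Kcnj), 14 two-pore-domain (Kcnk) and 8 calcium- or sodium-activated type (Kcnm, Kcnn, Kcnt, Kcnu) potassium channel genes, and 17 potassium channel accessory genes. They also comprise 10 calcium channel pore genes (Cacna1), 4 calcium channel alpha2delta genes (Cacna2d), 9 chloride channel or transporter genes (Clcn) and 21 transient receptor potential (TRP) genes. The last 6 members are 5 antisense or opposite-strand RNAs and *Trpc4ap*, whose symbol meets the rule although its product is an adaptor of a ubiquitin ligase and not a channel.

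The tumors were grown under the skin of male BALB/c mice of 6 to 8 weeks from CT26 cells, a colon carcinoma line of this strain. Tumors were left untreated (UT) or were treated once with BUP-Gel, a hydrogel carrying bupivacaine (BUP) at 40 mg/kg, and no library of the gel without drug was analysed here. Live cells of 3 tumors were pooled per group and sorted by CD45, and CD45+ and CD45- cells were mixed 4 to 1 by the labels or 3 to 1 by the methods of the study before 10x capture from the 5′ end, so each group had 1 library with enriched immune cells. The time of harvest is not given in the sources used here.

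Bupivacaine is a local anesthetic that enters the pore of voltage-gated sodium channels and stops the action potentials of nerve fibers. It is also known to act, at higher concentrations, on several potassium and calcium channels. In cells that fire no action potentials, channels set the membrane potential and with it the entry of calcium through other channels, and chloride and TRP proteins of endosomes and lysosomes serve ion balance in these organelles. Nerve fibers that reach a tumor under the skin arise from cell bodies that lie elsewhere.

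Sodium channels are described first, as the main target of the drug. In the last pore-lining segment of the last domain, a phenylalanine and a tyrosine are known contacts of local anesthetics. The coding sequences around them are given here for a gene of nodes of Ranvier and a gene of pain-sensing neurons, both nerve fiber targets of the drug, with the codons of these residues in capitals, 5′ to 3′ on the coding strand of GRCm39.
Scn8a, chr15:100937868-100937927, plus strand, exon 27 of 27, codons 1752 and 1759: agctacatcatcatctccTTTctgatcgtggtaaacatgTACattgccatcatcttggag
Scn11a, chr9:119583859-119583918, minus strand, exon 27 of 27, codons 1572 and 1579: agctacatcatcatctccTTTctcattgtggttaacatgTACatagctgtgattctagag

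*Scn11a* shared 50 of the 60 bases of *Scn8a*, *Scn10a* shared 51 and *Scn4a* shared 55. The search found no such segment in *Scn7a*, the sodium-sensing relative of the family. These segments lie in the last coding exon, far from the 5′ ends that the libraries captured, so they describe the drug's target and were not themselves counted.

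Barcodes with over 100 UMIs and under 20% mitochondrial UMIs were kept, 7163 cells in UT with a median of 8430 unique molecular identifiers (UMIs, 1 per captured RNA molecule) and 6776 cells in BUP with a median of 10420. The libraries shared 76 barcodes, 1.01% of the UT and 1.05% of the BUP barcodes. Cells fell into 24 classes, clustered without the member genes, of which 17 could be named from marker genes and carry the suffix -like. Other clusters are called by leading genes. Clusters with little *Ptprc*, the gene of CD45, included those led by *Ogn* and *Aspn*, by *Krt20* and *Nppb*, and by *Xkr4*. Their summed Y-linked genes were low (3.87 to 28.3 UMIs per 1000000 UMIs of the class, CPM, against 121 to 134 in the fibroblast-like class of these male mice). Of the neuron markers, *Snap25*, *Chat* and *Th* had at most 1 UMI per library, and *Tubb3*, *Nefl* and *Nefm* (455 to 1117 UMIs) were highest in the *Krt20* and *Nppb* cluster.

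A member is called detected in a class where a library held at least 10 of its UMIs in at least 5 cells of the class. The highest class of a member is sought among the classes that met this in both libraries. Levels are CPM of a class with exact Poisson 95% intervals, and ratios are log2 of BUP over UT with exact intervals. All intervals cover counting error only, not differences between tumors or library preparations. With 1 library per group no test was possible and no p-value is given. A count from the 5′ end takes 1 position per molecule, so levels were not divided by gene length. Capture differs between genes, so levels are compared mainly within a gene. Where genes are ranked or called low, this refers to the UMIs captured.

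Of the 158 members, 131 had a UMI in UT (82.9%, against 71.9% of all listed genes) and 132 in BUP (83.5%, against 72.6%). Detection in at least 1 class was reached by 60 members in UT (38.0%, against 46.7% of all genes) and 63 in BUP (39.9%, against 48.6%). In the same class of both libraries 55 members were detected (34.8%, against 44.8%). Members thus had a UMI somewhere more often than the background share, and reached the detection limit in a class less often than it. A further 20 members had no UMI in either library, 43 had 1 to 9 UMIs over both, and 28 had more without being detected in a class. The shares of all genes in these states were not counted.

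**Figure D1:**
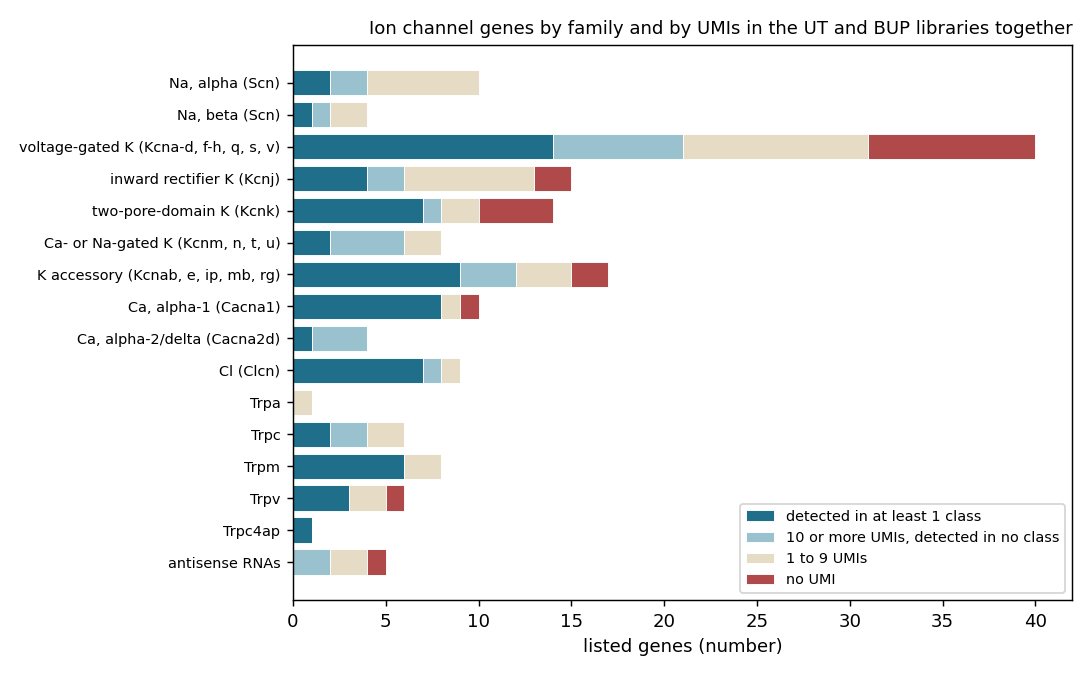
Members of each channel family on the vertical axis and number of genes on the horizontal axis, split by detection over both libraries. Of 10 sodium channel alpha genes 2 were detected in a class of a library, against 8 of 10 calcium channel pore genes. By library these were 1 in UT and 1 in BUP, and 7 and 8, against 46.7% and 48.6% of all genes. The voltage-gated potassium genes, 40 of the 158 members, held 9 of the 20 members with no UMI.

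The sodium channel alpha genes, the main target of bupivacaine, were close to absent. The 9 described here together had 45 UMIs in UT and 69 in BUP, of 82636729 and 89265372 UMIs in the kept cells. *Scn3a*, a neuronal alpha gene of early development, had 26 UMIs in UT and 29 in BUP, *Scn7a* had 5 and 14, and *Scn2a*, the alpha gene of central axons, had 7 and 11. The genes best known from peripheral nerve were at the edge of counting. *Scn9a*, of pain-sensing and sympathetic fibers, had 0 UMIs in UT and 2 in BUP. *Scn10a* and *Scn11a*, both of pain-sensing neurons, had 1 and 3 and 0 and 5 UMIs. *Scn8a*, of nodes of Ranvier, had 1 and 3 UMIs, *Scn1a*, of inhibitory neurons, 1 and 2, and *Scn4a*, of skeletal muscle, 4 and 0. A count of 0 in a whole library allows up to 0.0363 CPM in UT and 0.0336 CPM in BUP.

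*Scn3a* (chr2:65287462-65397971, minus strand) reached the detection limit in UT only, in 1 small class. Plasmacytoid dendritic-like cells, the interferon-producing dendritic lineage marked here by *Siglech* and *Ccr9*, held 17 UMIs in 10 of 32 cells in UT, 48.1 CPM (28.0 to 77.1), and 9 UMIs in 6 of 22 cells in BUP, 38.5 CPM (17.6 to 73.0). The BUP value fell 1 UMI short of the detection limit. In the *Krt20* and *Nppb* cluster *Scn3a* had 0 UMIs in UT and 13 in BUP, the most of any class there, and all 13 came from 1 cell. This cluster therefore has no *Scn3a* level shared by its cells. *Scn3a* overlaps the predicted genes *Gm13595* and *Gm34833* on the other strand.

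Every UMI of *Scn7a* (chr2:66503769-66615367, minus strand) came from the fibroblast-like class. There were 5 UMIs in 4 of 15 cells in UT, 17.2 CPM (5.57 to 40.03), and 14 UMIs in 8 of 64 cells in BUP, 9.81 CPM (5.36 to 16.5). The intervals overlap, and the detection call in BUP alone goes with the larger number of fibroblast-like cells there. *Scn2a* had 2 and 7 UMIs in the *Ogn* and *Aspn* cluster.

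**Figure D2:**
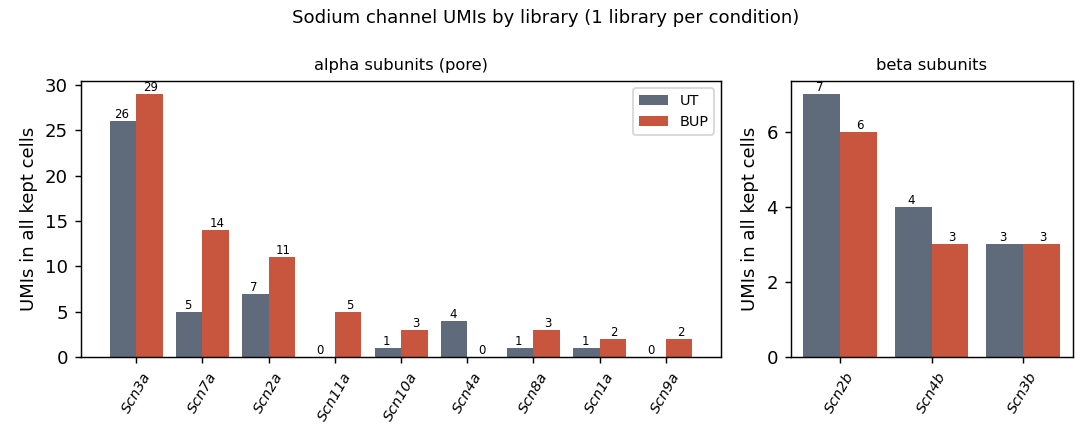
UMIs per library (vertical axis) for 12 sodium channel genes (horizontal axis), 9 alpha genes on the left and 3 beta genes on the right, UT and BUP side by side. *Scn3a* is the highest bar at 26 and 29 UMIs.

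The beta genes *Scn2b*, *Scn3b* and *Scn4b*, whose products bind alpha subunits and also act as adhesion molecules, were as low. *Scn2b* had 7 UMIs in UT and 6 in BUP, *Scn4b* 4 and 3 and *Scn3b* 3 and 3, and none was detected in a class.

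Voltage-gated potassium channels were led by *Kcnq5* (chr1:21468627-22032166, minus strand), whose product carries the slow M-type current of neurons. Of the large classes (those with at least 300000 UMIs in each library) it was highest in lymphocytes. In CD8 T-like cells it reached 286 CPM (265 to 308) in UT and 198 CPM (183 to 214) in BUP, in NK-like cells 258 CPM (242 to 276) and 189 CPM (172 to 207), and in proliferating CD8 T-like cells 205 CPM (186 to 226) and 194 CPM (178 to 210). Cxcl3 macrophage-like cells had 2.26 CPM (1.45 to 3.36) and 1.4999 CPM (0.749 to 2.68), the lowest of the large classes. BUP over UT, its log2 ratio was -0.53 (-0.69 to -0.37) in CD8 T-like cells, a lower value within 2-fold.

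*Kcna3*, the potassium channel best known from activated T cells, was higher in myeloid classes. Cxcl3 macrophage-like cells, led by the neutrophil chemokine *Cxcl3*, had 34.9 CPM (31.5 to 38.7) and 29.9 CPM (26.04 to 34.1), while CD8 T-like cells had 8.404 CPM (5.13 to 12.98) and 3.11 CPM (1.49 to 5.71). *Kcnc1*, a channel of fast-firing neurons, was found in NK-like cells at 32.8 CPM (27.1 to 39.4) and 28.8 CPM (22.4 to 36.4) and, on the opposite strand, overlaps *Sergef*. *Kcnf1*, a silent subunit, had 7.56 and 8.08 CPM in CD8 T-like cells. *Kcnq1*, the slow potassium channel of heart and epithelia, was detected in both libraries in migratory dendritic-like cells only (21.3 and 17.4 CPM), and mast-like cells had 134 and 66.98 CPM from 11 and 5 UMIs.

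*Kcnh1* and *Kcnh2* were detected in both libraries in non-immune clusters only. *Kcnh1*, studied in many tumor lines, had 35.9 CPM (26.8 to 47.1) in the *Xkr4* cluster of UT and 59.1 CPM (45.6 to 75.4) in that of BUP, and at 8.48 CPM (6.72 to 10.6) and 10.4 CPM (9.26 to 11.7) in the *Ogn* and *Aspn* cluster. *Kcnh2*, the repolarizing channel of the heart and a known off-target of bupivacaine, was at 8.06 and 6.02 CPM in the *Ogn* and *Aspn* cluster and at 6.74 and 5.06 CPM in the *Krt20* and *Nppb* cluster.

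Of 15 inward rectifiers, which hold cells near the potassium equilibrium, 4 were detected in the same class of both libraries, against 44.8% of all genes. *Kcnj2* was highest in neutrophil-like cells, at 24.1 CPM (16.6 to 33.9) and 21.9 CPM (14.03 to 32.6). *Kcnj10*, known from glia, was found in macrophages, with 9.51 and 11.7 CPM in proliferating C1q macrophage-like cells. *Kcnj13* (1.42 and 1.07 CPM) and *Kcnj12* (1.97 and 1.25 CPM) were detected in the *Krt20* and *Nppb* cluster at low levels.

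Levels of the two-pore-domain family, which carries background potassium current, differed between cell types. *Kcnk2*, *Kcnk5*, *Kcnk7* and *Kcnk13* were detected in both libraries in immune and in non-immune classes. *Kcnk13*, known from microglia, reached 63.2 CPM (59.1 to 67.5) in C1q macrophage-like cells of UT and 48.9 CPM (43.4 to 55.0) in those of BUP, against 0.986 and 0.883 CPM in the *Krt20* and *Nppb* cluster. *Kcnk6*, whose product lets potassium leave macrophages, was highest in migratory dendritic-like cells, the dendritic cells marked by *Ccr7* and *Fscn1*, at 56.7 CPM (38.8 to 80.0) and 45.4 CPM (29.6 to 66.5). *Kcnk7* was found in cytotoxic lymphocytes, with 20.8 and 24.6 CPM in NK-like and 21.4 and 19.9 CPM in CD8 T-like cells. *Kcnk5* had 13.7 and 11.4 CPM in proliferating CD8 T-like cells and 15.97 and 6.84 CPM in CD8 T-like cells. *Kcnk2*, a mechanically gated channel that local anesthetics block, was at 14.4 and 10.9 CPM in the *Krt20* and *Nppb* cluster. *Kcnk10*, its close relative, was in NK-like cells at 20.3 and 23.4 CPM. Its fibroblast-like value of 199 CPM in UT rested on 58 UMIs in 4 of 15 cells, 34 of them in 1 cell, against 41.3 CPM from 59 UMIs in 17 of 64 cells in BUP.

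*Kcnn4* (chr7:24066915-24086115, plus strand), the intermediate-conductance calcium-activated potassium channel of lymphocytes, macrophages and many carcinomas, had 6785 UMIs in UT and 6177 in BUP. The *Krt20* and *Nppb* cluster held it at 177 CPM (171 to 184) in UT and 142 CPM (137 to 148) in BUP. C1q macrophage-like cells had 92.2 CPM (87.2 to 97.3) and 70.4 CPM (63.7 to 77.6), the *Ogn* and *Aspn* cluster 62.1 CPM (57.2 to 67.4) and 55.5 CPM (52.8 to 58.3), and Cxcl3 macrophage-like cells 41.0 CPM (37.2 to 45.0) and 51.3 CPM (46.2 to 56.7). Levels were lower in CD8 T-like cells (15.5 and 12.1 CPM), NK-like cells (4.57 and 5.01 CPM) and neutrophil-like cells (4.39 and 3.65 CPM). *Kcnn4* was also detected in both libraries in proliferating CD8 T-like and in regulatory and gamma-delta T-like cells. Of the others of this family, *Kcnu1*, known from sperm, was at 17.97 and 13.6 CPM in the *Xkr4* cluster, and *Kcnma1*, the large-conductance channel of smooth muscle, was detected in no class, with 13 UMIs in 3 fibroblast-like cells of UT and 1 in BUP.

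Accessory subunits of potassium channels were found with and without their pore partners. *Kcnab2*, a beta subunit of Kcna channels, was at 60.9 CPM (56.9 to 65.2) and 58.2 CPM (52.1 to 64.8) in C1q macrophage-like cells and at 61.4 CPM (53.5 to 70.2) and 57.1 CPM (48.0 to 67.6) in NK-like cells, against 7.997 and 8.18 CPM in the *Krt20* and *Nppb* cluster. *Kcnab1* was highest in the *Xkr4* cluster (41.5 and 60.04 CPM). *Kcnip1*, *Kcnip2*, *Kcnip3* and *Kcnip4* encode partners of Kcnd channels, yet none of *Kcnd1*, *Kcnd2* and *Kcnd3* was detected in a class. *Kcnip1* was at 7.71 and 6.26 CPM in NK-like cells, *Kcnip4* at 2.69 and 4.70 CPM in C1q macrophage-like cells and *Kcnip3* at 2.54 and 2.80 CPM in the *Ogn* and *Aspn* cluster. *Kcnmb4*, a beta subunit of the large-conductance channel, was at 10.1 and 9.32 CPM in CD8 T-like cells, where *Kcnma1* was not detected. *Kcne3* was seen in mast-like cells with 8 UMIs in UT and 14 in BUP.

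Of 10 calcium channel pore genes 7 were detected in the same class of both libraries, against 44.8% of all genes, and *Cacna1b*, *Cacna1e* and *Cacna1s* were so in 1 class only. *Cacna1e* (chr1:154266477-154760247, minus strand), the R-type channel of neurons and endocrine cells, was highest in plasmacytoid dendritic-like cells. It had 623 CPM (543 to 711) in 30 of 32 cells of UT and 393 CPM (317 to 482) in 19 of 22 cells of BUP, and 0 UMIs in proliferating CD8 T-like cells of either library. *Cacna1s*, the L-type channel of skeletal muscle, was at 35.4 CPM (21.6 to 54.7) and 59.3 CPM (41.1 to 82.9) in migratory dendritic-like cells, in 15 of 74 and 23 of 68 cells. *Cacna1a*, the P/Q-type channel of nerve endings, was in the same class at 152 CPM (122 to 188) and 115 CPM (89.1 to 147), and in C1q macrophage-like cells at 46.7 CPM (43.2 to 50.4) and 39.5 CPM (34.6 to 45.0), against 3.77 CPM (2.69 to 5.13) and 3.27 CPM (2.10 to 4.87) in Cxcl3 macrophage-like cells. The intervals of the macrophage classes did not overlap in either library. *Cacna1a* was at least as high in non-immune clusters as in C1q macrophage-like cells. It had 52.7 and 48.7 CPM in the *Ogn* and *Aspn* cluster and 50.9 and 48.7 CPM in the *Krt20* and *Nppb* cluster.

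*Cacna1d* (chr14:29761896-30213412, minus strand), an L-type channel of heart pacemaker and endocrine cells, was found in myeloid classes. C1q macrophage-like cells had 112 CPM (107 to 118) in UT and 96.8 CPM (89.0 to 105) in BUP, and Cxcl3 macrophage-like cells 112 CPM (106 to 119) and 119 CPM (111 to 127), against 3.43 and 0.834 CPM in NK-like cells. *Cacna1d* was also among the 10 leading genes of a cluster of low-depth cells (median 1200 UMIs in UT and 1317 in BUP), with 499.98 CPM (431 to 577) and 341 CPM (275 to 418). This level depends on the clustering, since it was 157 and 148 CPM when members were kept among the variable genes. In that cluster other genes spanning over 100 kb took 18.2% and 17.5% of UMIs, and mitochondrial genes a median of 9.28% and 8.09%, and their part in the level was not tested. *Cacna1d* overlaps *Chdh* and *Dcp1a* on the other strand. *Cacna1b*, the N-type channel (4.74 and 2.96 CPM), and *Cacna1f*, known from the retina (3.19 and 4.53 CPM), were detected at low levels in C1q macrophage-like cells.

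*Cacna1c*, the L-type channel of heart and smooth muscle, and *Cacna2d1*, the alpha2delta subunit to which gabapentin binds, were found together in the non-immune clusters. *Cacna1c* was at 206 CPM (157 to 265) and 135 CPM (117 to 156) in the fibroblast-like class, at 28.2 CPM (24.9 to 31.8) and 28.7 CPM (26.7 to 30.8) in the *Ogn* and *Aspn* cluster and at 18.02 CPM (16.1 to 20.1) and 19.5 CPM (17.6 to 21.4) in the *Krt20* and *Nppb* cluster. *Cacna2d1* was at 148 CPM (107 to 199) and 96.7 CPM (81.2 to 114), at 39.5 CPM (35.6 to 43.8) and 32.2 CPM (30.1 to 34.4) and at 28.0 CPM (25.6 to 30.5) and 26.2 CPM (24.04 to 28.4) in these classes, in the same order. *Cacna1g*, a T-type channel, had in the fibroblast-like class 30.9 CPM (14.1 to 58.6) and 20.3 CPM (13.6 to 29.2), and *Cacna1h*, its relative, had no UMI. Beta subunits lie outside the symbol rule, but *Cacnb2* was at 170 and 184 CPM in the *Ogn* and *Aspn* cluster, and *Cacnb3* at 779 and 773 CPM in migratory dendritic-like cells.

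Of the Clcn genes, 6 of 9 were detected in the same class of both libraries, against 44.8% of all genes. *Clcn3*, *Clcn4*, *Clcn5*, *Clcn6* and *Clcn7* are exchangers of endosomes and lysosomes. *Clcn3* had 52.4 CPM (49.1 to 55.8) and 47.4 CPM (44.5 to 50.4) in the *Krt20* and *Nppb* cluster and 36.2 CPM (33.2 to 39.5) and 39.7 CPM (34.7 to 45.2) in C1q macrophage-like cells. *Clcn5*, of early endosomes, had 73.1 CPM (68.7 to 77.6) and 68.4 CPM (61.8 to 75.6) in C1q macrophage-like cells against 9.65 and 10.7 CPM in the *Ogn* and *Aspn* cluster. *Clcn4* had 66.2 and 69.6 CPM in monocyte-like cells and 68.6 and 65.2 CPM in fibroblast-like cells. *Clcn7*, the lysosomal exchanger that osteoclasts need, was at 31.5 CPM (28.6 to 34.6) and 29.8 CPM (25.5 to 34.6) in C1q macrophage-like cells. *Clcn2*, a chloride channel of the plasma membrane, was low, at 2.97 and 3.62 CPM in the *Ogn* and *Aspn* cluster.

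The TRP genes were led by *Trpm7* (chr2:126633480-126718182, minus strand), a magnesium- and calcium-permeable channel fused to a kinase, which was detected in 21 classes of both libraries. Its level was low in cDC1-like cells, the dendritic cells marked by *Xcr1* and *Clec9a*, 45.2 CPM (33.7 to 59.4) and 41.3 CPM (31.4 to 53.4), and highest in the *Xkr4* cluster, 266 CPM (240 to 294) and 273 CPM (243 to 306). *Trpm2* (chr10:77743556-77806405, minus strand), which opens on oxidative stress in phagocytes, had 89.98 CPM (74.8 to 107) and 103 CPM (85.0 to 124) in neutrophil-like cells, 15.6 CPM (13.6 to 17.8) and 18.8 CPM (15.4 to 22.7) in C1q macrophage-like cells and 0.742 and 0.466 CPM in the *Ogn* and *Aspn* cluster. *Trpm4*, a calcium-activated sodium and potassium channel, was at 25.6 and 29.1 CPM in the *Xkr4* cluster. *Trpm6*, the magnesium channel of kidney and gut, was there at 34.6 and 29.1 CPM and was detected in both libraries in non-immune clusters only.

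*Trpv2* (chr11:62465304-62491341, plus strand), a cation channel used by macrophages in phagocytosis, was found across leukocytes. cDC1-like cells had 124 CPM (104 to 146) in UT and 120.4 CPM (103 to 140.1) in BUP, and Cxcl3 macrophage-like cells 81.3 CPM (76.0 to 86.9) and 78.7 CPM (72.4 to 85.4), against 2.54 CPM (1.63 to 3.79) and 2.51 CPM (1.96 to 3.17) in the *Ogn* and *Aspn* cluster. *Trpv4*, an osmosensitive channel, was at 10.8 CPM (9.12 to 12.6) and 8.01 CPM (5.87 to 10.7) in C1q macrophage-like cells. *Trpc1* was at 5.46 and 7.46 CPM in CD8 T-like cells. The nociceptor channels were not found at this depth. *Trpv1*, the capsaicin receptor, had no UMI in either library, and *Trpa1*, the receptor of irritants, had 3 and 2.

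**Figure D3:**
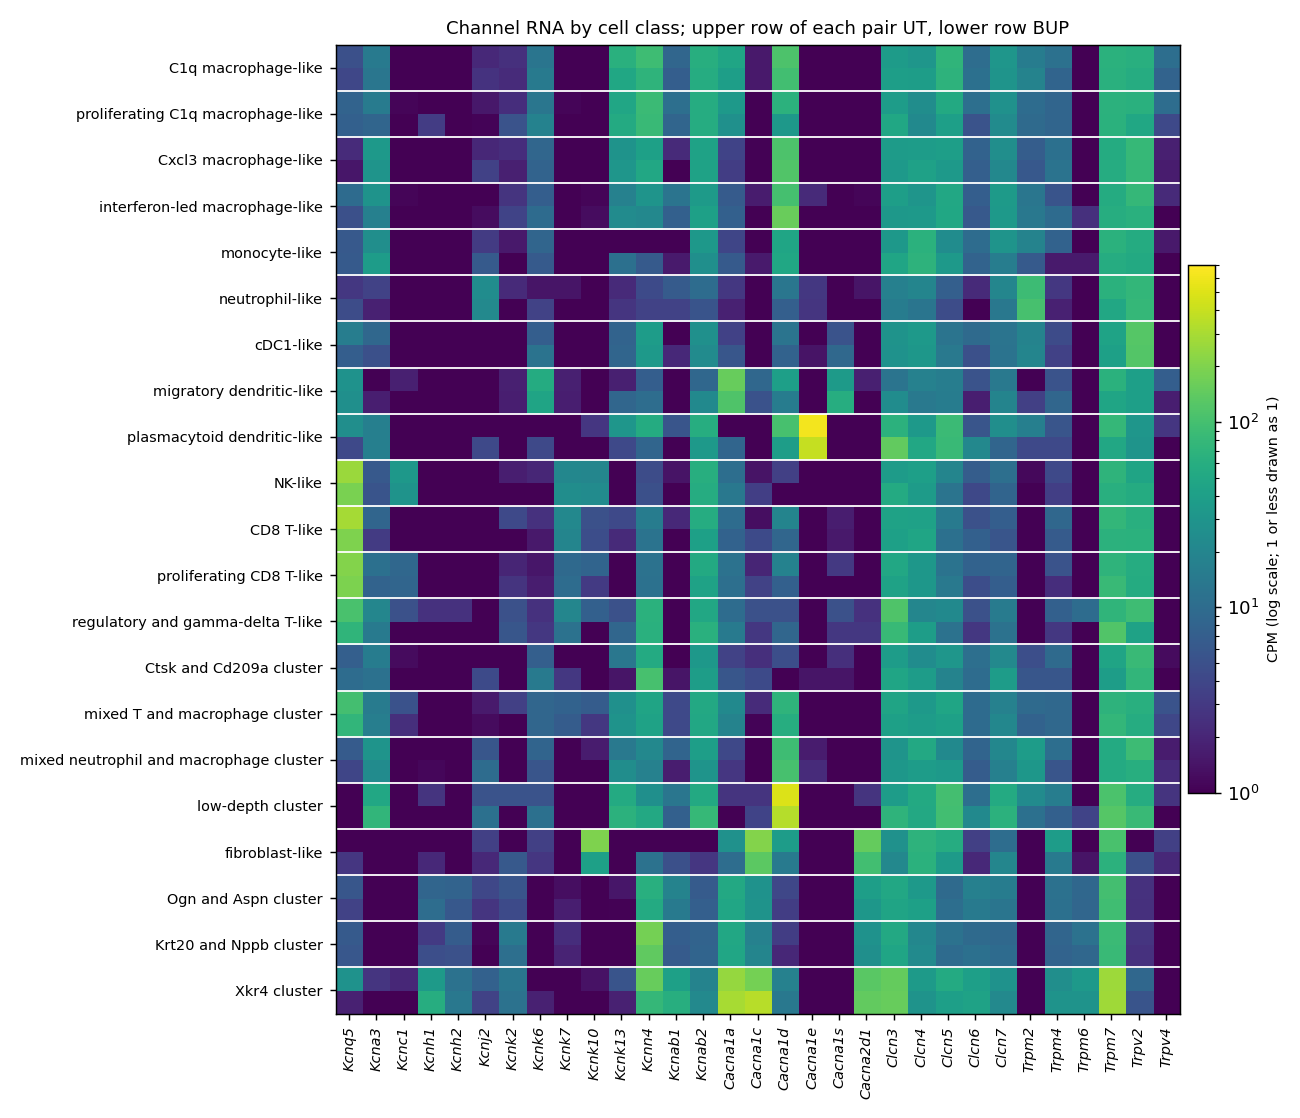
Colour gives CPM (log scale, values of 1 or less drawn as 1) of 31 channel genes on the horizontal axis in 21 classes on the vertical axis, with UT in the upper and BUP in the lower row of each pair. *Kcnq5* stands out in the NK-like and T-like rows, *Cacna1e* in plasmacytoid dendritic-like cells (623 and 393 CPM), *Trpm2* in neutrophil-like cells and *Cacna2d1* in the non-immune rows.

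Among the other members detected in both libraries several were low, while *Clcn6* and *Trpc4ap* were not. In the *Krt20* and *Nppb* cluster *Kcnb2*, a delayed rectifier of neurons, had 3.67 CPM (2.84 to 4.66) in UT and 2.93 CPM (2.25 to 3.74) in BUP, *Kcnip2*, of heart muscle, 0.876 and 0.697 CPM, *Trpv3*, a warmth-gated channel of keratinocytes, 0.822 and 0.790 CPM, and *Trpm1*, of retina and melanocytes, 0.767 and 0.650 CPM. *Trpm1* had as much in C1q macrophage-like cells, with 0.920 and 0.697 CPM, but only 4 BUP UMIs there. In the *Ogn* and *Aspn* cluster *Trpm3* was at 3.50 and 3.23 CPM and the silent subunit *Kcns3* at 2.33 and 2.04 CPM. *Clcn6*, of late endosomes, was highest in the *Xkr4* cluster, with 40.8 CPM (31.0 to 52.6) and 43.7 CPM (32.2 to 57.9), as was the adaptor gene *Trpc4ap*, with 126 and 110.1 CPM.

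Split by lineage, 15 of the 55 members detected in the same class of both libraries were so in immune classes only (27.3%, against 8.82% of all genes so detected), 16 in non-immune clusters only (29.1%, against 14.5%) and 24 in both (43.6%, against 76.7%). The immune group included *Cacna1b*, *Cacna1e*, *Cacna1f*, *Cacna1s*, *Kcnc1*, *Kcnf1*, *Kcnj10*, *Kcnk6*, *Kcnk10*, *Kcnmb4*, *Kcnq1*, *Trpc1*, *Trpm2* and *Trpv4*. The non-immune group comprised *Cacna1c*, *Cacna2d1*, *Clcn2*, *Kcnb2*, *Kcnh1*, *Kcnh2*, *Kcnip2*, *Kcnip3*, *Kcnj12*, *Kcnj13*, *Kcns3*, *Kcnu1*, *Trpm1*, *Trpm3*, *Trpm6* and *Trpv3*. *Kcnk10* falls in the immune group since its 4 UT cells in the fibroblast-like class are short of the 5 required. Detection in both lineages rests on a fixed count. *Trpv2*, in that group, had 62.4 and 57.5 CPM in C1q macrophage-like cells but 2.74 and 2.55 CPM in the *Krt20* and *Nppb* cluster. *Ptprc* itself had 442 and 501 CPM against 25.9 and 26.2 CPM there. Of the cells of this cluster, 11.8% were among the 6% with the highest doublet scores. The part of RNA from other cells in these calls was not tested. By class, the *Krt20* and *Nppb* cluster had 43 detected members in UT and 40 in BUP (27.2% and 25.3%, against 40.2% and 41.1% of all genes), and the *Ogn* and *Aspn* cluster 34 and 40 (21.5% and 25.3%, against 37.6% and 43.2%). C1q macrophage-like cells had 34 and 28 (21.5% and 17.7%, against 38.3% and 33.9%) and Cxcl3 macrophage-like cells 31 and 26 (19.6% and 16.5%, against 35.7% and 33.9%). CD8 T-like cells had 23 and 25 (14.6% and 15.8%, against 30.2% and 31.0%), NK-like cells 23 and 18 (14.6% and 11.4%, against 31.6% and 28.9%) and neutrophil-like cells 12 and 8 (7.59% and 5.06%, against 21.0% and 16.7%). In each of these classes the share of members was below the share of all genes.

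Detection in 1 library only was seen for 11 members. The share of all genes so detected was not counted, so this number is not read as a difference between the groups. In UT only these were *Clcn1*, *Kcng2*, *Kcnh4* and *Scn3a*, and in BUP only *Cacna1g*, *Kcne4*, *Kcng3*, *Kcnh6*, *Kcnk3*, *Scn7a* and *Trpc6*. *Clcn1*, the chloride channel of skeletal muscle, had 11 UMIs in UT and 3 in BUP in the *Krt20* and *Nppb* cluster. *Kcng3*, a silent potassium subunit, had 7 and 21 in CD8 T-like cells, and *Trpc6*, a lipid-gated cation channel, had 2 and 17 in the *Ogn* and *Aspn* cluster, which had 611 cells in UT and 1735 in BUP. As CPM, *Trpc6* was at 0.212 (0.0257 to 0.766) and 0.609 (0.355 to 0.975), with overlapping intervals. *Kcne3* was detected in both libraries but never in the same class.

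The 20 members with no UMI were *Cacna1h*, *Kcna1*, *Kcna5*, *Kcna6*, *Kcna10*, *Kcnc4*, *Kcne1l*, *Kcne2*, *Kcng4*, *Kcnj4*, *Kcnj5*, *Kcnk9*, *Kcnk15*, *Kcnk16*, *Kcnk18*, *Kcnmb4os1*, *Kcns1*, *Kcns2*, *Kcnv1* and *Trpv1*. They include *Kcna1* and *Kcna6*, potassium channels of myelinated axons, and *Kcnk9*, an acid-sensitive background channel. Among the 43 members with 1 to 9 UMIs were *Cacna1i*, *Kcna2*, *Kcnab3os*, *Kcnc2*, *Kcnd2*, *Kcnd3os*, *Kcne1*, *Kcng1*, *Kcnh3*, *Kcnh5*, *Kcnh8*, *Kcnj1*, *Kcnj3*, *Kcnj6*, *Kcnj9*, *Kcnj11*, *Kcnj15*, *Kcnj16*, *Kcnk1*, *Kcnk4*, *Kcnmb1*, *Kcnmb3*, *Kcnn2*, *Kcnt1*, *Kcnv2*, *Scn1a*, *Scn3b*, *Scn4a*, *Scn4b*, *Scn8a*, *Scn9a*, *Scn10a*, *Scn11a*, *Trpa1*, *Trpc7*, *Trpm5*, *Trpm8*, *Trpv5* and *Trpv6*. They include *Kcna2*, the partner of *Kcna1*, and *Trpm8*, the cold receptor. Among the 28 members with more UMIs that reached no class were *Cacna2d2*, *Cacna2d3*, *Cacna2d4*, *Kcna4*, *Kcna7*, *Kcnab3*, *Kcnd1*, *Kcnd3*, *Kcnh7*, *Kcnj8*, *Kcnj14*, *Kcnk12*, *Kcnma1*, *Kcnmb2*, *Kcnmb4os2*, *Kcnn1*, *Kcnn3*, *Kcnq3*, *Kcnrg*, *Kcnt2*, *Scn2a*, *Scn2b*, *Trpc4*, *Trpc5* and *Trpc5os*. Of 21 genes listed as known bupivacaine targets, 16 had a UMI in UT and 17 in BUP, and 5 were detected in a class of each library (23.8%, against 46.7% and 48.6% of all genes). Detected in the same class of both were *Kcnk2*, *Cacna1b*, *Kcnh2* and *Cacna1c*. *Kcnd3* had 14 UMIs in each library, *Kcnj3* had 1 and 2, *Kcnj6* had 4 and 3, and *Kcnk3* had 18 and 45, with 11 of the latter in 10 proliferating CD8 T-like cells. All 15 channels listed as known from leukocytes or lysosomes were detected in the same class of both libraries, but that list was chosen with these results known, so its count carries no information of its own.

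The RNA of the members was not even between classes. Members summed to 741 CPM in UT and 644 CPM in BUP over all kept cells, and the 5 members with most UMIs held 43.7% of these. The adaptor gene *Trpc4ap*, with 5158 and 5402 UMIs, is among these 5 and in all sums over members. The *Xkr4* cluster had 1736 and 1863 CPM, the low-depth cluster 1333 and 1364 CPM, plasmacytoid dendritic-like cells 1435 and 1068 CPM and fibroblast-like cells 1314 and 816 CPM. In the *Xkr4* cluster, led by *Xkr4*, *Mir100hg* and the calcium channel beta gene *Cacnb2*, genes over 100 kb other than members took 28.1% and 31.4% of UMIs, and the median mitochondrial share was 6.75% and 8.31%. By the mean of both libraries it had the highest level of 13 of the members, and in each library alone of 10 of these, *Cacna1a* (247 and 297 CPM), *Clcn3* (150.0 and 153 CPM) and *Trpm7* among them. The exceptions were *Cacna1c*, *Cacna2d1* and *Trpm4*. The part of long genes in these levels was not tested. Whether the authors counted reads in introns is not given in the sources used here.

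**Figure D4:**
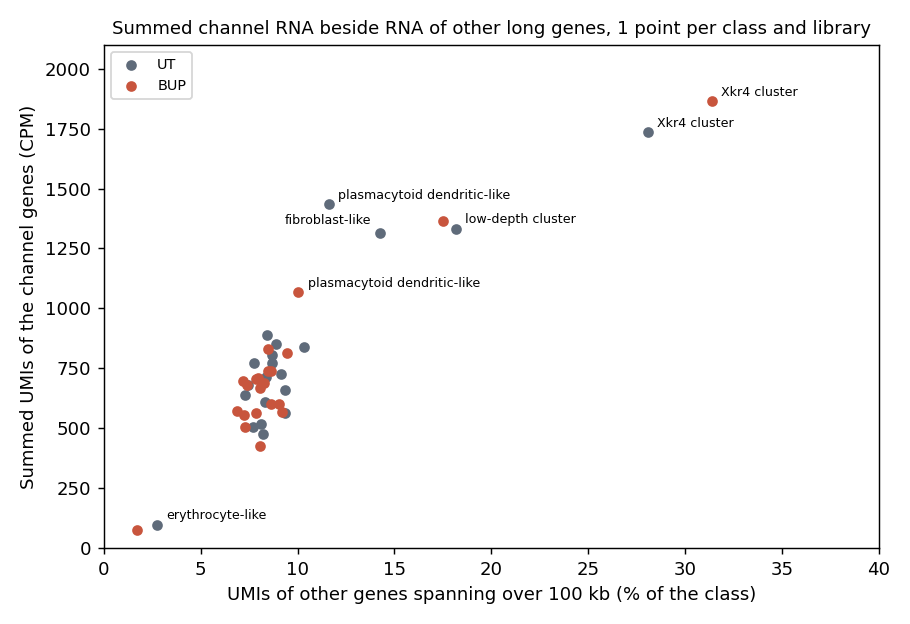
Summed UMIs of the 158 members (CPM, vertical axis) against the percent of UMIs from other genes spanning over 100 kb (horizontal axis), 1 point per class and library, for 22 classes. The *Xkr4* and low-depth clusters lie high on both axes, and plasmacytoid dendritic-like cells are high in member RNA with 11.6% and 10.0% of UMIs from long genes.

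Between the libraries, channel levels within a class mostly lay within 2-fold. With at least 100 UMIs over both libraries, 196 pairs of a gene and a class could be compared, from 39 members in 20 classes. Of these, 1 pair was at least 2-fold higher in BUP, against 0.556% of all such pairs over all genes, and 2 pairs were at least 2-fold lower, against 0.819%. The exact interval, for counting error only, lay above 0 for 13 pairs (6.63%, against 10.1% of all pairs) and below 0 for 34 (17.3%, against 16.7%). The 2-fold counts and the share below 0 are near the background. The median log2 ratio of members was -0.13 in the *Ogn* and *Aspn* cluster (all genes -0.07), -0.10 in the *Krt20* and *Nppb* cluster (-0.05), -0.09 in C1q macrophage-like cells (-0.03), -0.05 in Cxcl3 macrophage-like cells (-0.07), -0.10 in NK-like cells (-0.08) and 0.10 in the *Xkr4* cluster (-0.05).

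**Figure D5:**
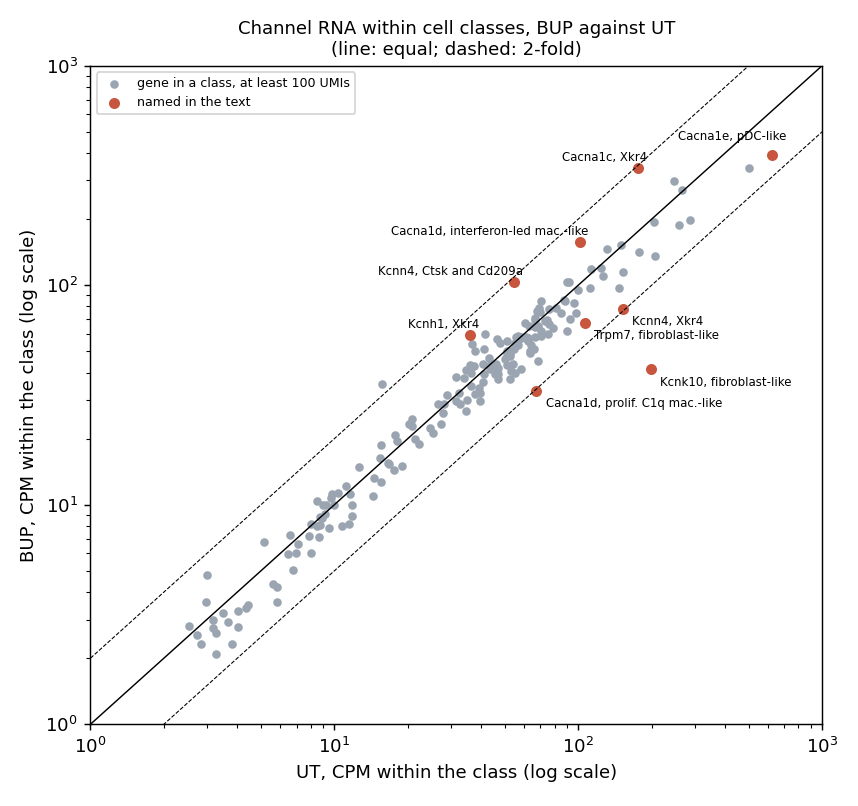
CPM in BUP (vertical axis) against UT (horizontal axis), both on log scales, for the 196 pairs of a member and a class, *Trpc4ap* included, with 9 pairs described in the text named. Points follow the line of equality, with 1 above the upper dashed 2-fold line, and *Kcnk10* in fibroblast-like cells and *Cacna1d* in proliferating C1q macrophage-like cells below the lower.

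High ratios within 2-fold were those of *Cacna1c* in the *Xkr4* cluster, from 176 CPM (155 to 199) to 342 CPM (308 to 378), a log2 ratio of 0.96 (0.72 to 1.19), and of *Kcnn4* in the *Ctsk* and *Cd209a* cluster, from 54.6 CPM (39.8 to 73.1) to 103 CPM (80.8 to 130.1), a log2 ratio of 0.92 (0.36 to 1.49). The latter depends on the clustering, since it was -0.37 with 30 principal components, and 5 of the 63 BUP cells held 56.9% of its UMIs. The make-up of this cluster also differed between the libraries. Its osteoclast markers (*Ctsk*, *Acp5*, *Mmp9*, *Atp6v0d2*) summed to 1339 CPM in UT and 12327 CPM in BUP. Its dendritic markers (*Cd209a*, *Clec10a*, *Mgl2*, *Itgax*) summed to 1826 and 1024 CPM. The part of this make-up in the ratio was not tested. *Kcnh1* in the *Xkr4* cluster had 0.72 (0.17 to 1.27). *Cacna1d* in interferon-led macrophage-like cells, led by *Rsad2* and *Cmpk2*, had 0.63 (0.30 to 0.97), from 101 CPM (87.4 to 117) to 157 CPM (131 to 187).

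The lowest ratio was that of *Kcnk10* in fibroblast-like cells, -2.27 (-2.81 to -1.72), where 5.31% of all genes tested were at least 2-fold lower and the UT value came from 4 cells. *Cacna1d* in proliferating C1q macrophage-like cells went from 67.4 CPM (60.1 to 75.3), with 312 UMIs in 249 cells, to 33.0 CPM (22.4 to 46.9), with 31 UMIs in 59 cells, a log2 ratio of -1.03 (-1.61 to -0.49) against 1.18% of genes at least 2-fold lower in that class. *Cacna1d* thus differed in opposite directions in the interferon-led and the proliferating C1q macrophage-like classes, both named for their extreme ratios, and the difference between them was not tested. In C1q macrophage-like cells its log2 ratio was -0.21 (-0.35 to -0.07). In Cxcl3 macrophage-like cells it was 0.08 (-0.05 to 0.21). *Kcnn4* in the *Xkr4* cluster went from 152 CPM (133 to 174) to 78.2 CPM (62.6 to 96.6), a log2 ratio of -0.96 (-1.34 to -0.59). *Cacna1e* in plasmacytoid dendritic-like cells had -0.66 (-1.03 to -0.31), with 1 UT cell holding 55 of the 220 UMIs, and *Trpm7* in fibroblast-like cells -0.66 (-1.26 to -0.03). In the fibroblast-like class, with 15 UT cells, the median over the 7 members compared was -0.61 against 0.06 for all genes. The summed level there went from 1314 to 816 CPM and the share of other long genes from 14.3% to 9.44%, and the part of the latter was not tested.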

How the data were processed

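Single-cell RNA was measured in 1 UT and 1 BUP library of 3 pooled tumors each, grouped from the sample labels. The deposited values are UMI counts per gene and barcode, not normalized, which the authors made with Cell Ranger (8.0.1 in the submitters' processing notes, which also name Seurat 5.0.1) on GRCm39. The labels and methods of the study differ on the mixing of CD45+ and CD45- cells. From these counts, barcodes with over 100 UMIs and under 20% mitochondrial UMIs were clustered in Seurat 5.3.0 (R 4.3.3) with 2000 variable genes without the members, 20 principal components and a resolution of 0.5, and clusters with *Ptprc* in at least 30% of cells were clustered again. Classes were named by hand from marker lists and leading genes. No doublets were removed in the values reported. Sums, exact intervals and figures used Python 3.11.15, numpy 2.4.6, scipy 1.17.1, pandas 2.3.3, scanpy 1.11.5 and matplotlib 3.10.9, and were tested on simulated data. Coding segments and positions are those of the GRCm39 reference with GENCODE annotation.

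The members and all lists were chosen with earlier results of these data known. Named genes are the Scn genes, in each family up to 5 detected members with most UMIs, the 5 largest and 5 smallest log2 ratios at 100 UMIs and 20 CPM, the listed bupivacaine targets and neuronal channels named as absent. Results of some genes that this rule or the lists include are not reported here. Other genes were named after their values were seen. They are *Kcnf1*, *Kcnq1*, *Kcnk5*, *Kcnmb4*, *Kcne3*, *Kcnma1*, *Clcn2*, *Cacna1b*, *Cacna1s*, *Cacna1g*, *Kcnb2*, *Kcng3*, *Kcnip2*, *Kcns3*, *Clcn1*, *Trpm1*, the members listed by detection and, outside the rule, the beta subunits and other partner genes. Alternatives were a stricter filter (at least 1000 UMIs, 500 genes, under 10% mitochondrial), resolution 1.0, 30 principal components, members kept among variable genes, cells thinned to 2000 UMIs, leaving out the top 6% of cells by doublet score, other detection limits and median-ratio scaling. Leaving out doubted clusters was added after the data were seen.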

Additional observations from a re-analysis of the deposited data

How the results depend on the processing

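Detection in at least 1 class fell to 37 members in UT and 34 in BUP when cells were thinned to 2000 UMIs, an alternative that counts fewer molecules by construction. It was 59 and 62 with a stricter cell filter, 85 and 90 with a limit of 3 UMIs in 3 cells, and 44 and 45 with 30 UMIs in 10 cells. It was 60 and 63 under resolution 1.0, 30 principal components, members kept among the variable genes and removal of the highest doublet scores, and also without the mixed, low-depth, *Ctsk* and *Cd209a* or *Xkr4* clusters, an alternative chosen after seeing the data. After thinning the median log2 ratio of members was 0.10 in the mixed T and macrophage cluster and -0.019 in the *Ogn* and *Aspn* cluster, and median-ratio scaling gave -0.047 in the *Krt20* and *Nppb* cluster; the cause was not tested. Of the 9 large and small ratios described, *Kcnn4* in the *Ctsk* and *Cd209a* cluster turned to -0.37 with 30 principal components and was 0.07 after thinning, and the other 8 kept their direction. Levels of named members left their counting interval for 13 values when members were kept among the variable genes, among them *Cacna1d* in the low-depth cluster (157 and 148 CPM), for 36 after thinning and for at most 4 under each other alternative run. No paired analysis was possible because each group has 1 library. Depth limits what can be called absent. A member with no UMI in a library may be present at up to 0.0363 CPM in UT and 0.0336 CPM in BUP over all cells, and at far higher levels in small classes, such as 8.49 and 12.8 CPM in plasmacytoid dendritic-like cells.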

Other observations

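Ion channels and partners outside the symbol rule were counted from a list of 49 genes. Of these, 47 had a UMI in UT and 49 in BUP, against 71.9% and 72.6% of all genes. In the same class of both libraries 32 were detected, against 44.8% of all genes. *P2rx7*, the ATP-gated channel of macrophages, had 172 and 120.4 CPM in C1q macrophage-like cells of UT and BUP. *Cacnb2*, a calcium channel beta subunit, was at 1389.97 and 1857 CPM in the *Xkr4* cluster, and 169 and 178 CPM in the *Krt20* and *Nppb* cluster. The proton channel *Hvcn1*, the calcium release-activated channels *Orai1*, *Orai2* and *Orai3* with their sensors *Stim1* and *Stim2*, and the mechanically gated *Piezo1* were among the genes detected in the same class of both libraries.

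Some neuronal marker genes had UMIs in clusters outside the immune classes. *Nefm*, a neurofilament gene, had 41.2 CPM in UT and 32.3 in BUP in the *Krt20* and *Nppb* cluster, and *Nefl* at 31.8 and 19.9 CPM. *Syt1*, a synaptic vesicle gene, was at 20.7 and 57.3 CPM in the *Xkr4* cluster.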
